A study of Mus musculus with 18 samples.

Results

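The receptor transporting proteins Rtp1 and Rtp2, the receptor expression enhancing proteins Reep1 and Reep6, the G protein chaperone Ric8b and the G protein gamma subunit Gng8 were followed across cells sorted from the mouse main olfactory epithelium (MOE), where the olfactory sensory neurons (OSNs) of the nose lie. The members were chosen by symbol, as the rows of the expression table that carry these 6 names, 6 of 23359 symbols in all. All 6 were present once each and all 6 passed the filter on low values used for testing. Expression was given in transcripts per 1000000 (TPM), a share of the library corrected for gene length, so that levels of different genes may be compared.

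The 18 libraries came from mice labelled as C57BL/6. The study's reporting summary describes a mixed background instead. In the Taar5-ires-Cre line, the trace amine-associated receptor (TAAR) gene Taar5 drives Cre, which turns on the reporter L10-GFP. GFP-positive cells gave 7 libraries (Taar5+) and GFP-negative cells gave 9 libraries (control), both from mice of postnatal day 11 to 14 per the labels. In the Taar6-ires-Cre line the reporter was ZsGreen, and positive cells (Taar6+) and negative cells gave 1 library each, from mice of postnatal day 16 to 17 per the labels. The same summary gives an older age, in weeks, for both lines. All groups, the negative cells included, came from mice that carried both the Cre and the reporter allele. Cre marks the cells that use, or have used, the Taar5 or Taar6 locus, whereas the negative cells are a mixture in which neurons with an odorant receptor (OR) are the majority. No label says that the libraries of a group came from separate mice, so every p-value measures only the spread between these libraries.

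ORs and TAARs are G protein-coupled receptors, and ORs rarely reach the cell surface on their own. In OSNs, RTP1 and RTP2 help ORs leave the endoplasmic reticulum (ER) and reach the membrane, and REEP proteins shape the ER. At the cilia the receptor signals through the alpha subunit Gαolf, encoded by Gnal, which RIC8B stabilises and for which it promotes nucleotide exchange, and through a gamma subunit that is mainly GNG13 in mature OSNs and GNG8 in immature ones.

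The sort was checked on the receptor genes themselves. Summed Taar expression was 1517 to 7804 TPM in Taar5+ libraries and 94.5 to 403 TPM in controls, and summed OR expression was 225 to 5525 TPM against 6174 to 20251 TPM. Omp, the defining marker of mature OSNs, was at 8597 to 18195 TPM in Taar5+ libraries and at 3908 to 20070 TPM in controls. Control 2 stood apart, with 5939 rows above 0 TPM, the fewest of the 18 libraries, against a median of 14648 in controls. Its 13 Taar values above 0 were identical to those of control 1 and were set as missing. It also had the highest sum of 4 sustentacular cell markers, at 9078 TPM, and 1149 TPM of 4 gland markers. Taar5+ library 5 stood apart in its own group, with the lowest Taar sum (1517 TPM), the highest OR sum (5525 TPM), 7417 TPM of sustentacular and 6102 TPM of gland markers. For members and ratios whose direction or call changed without these libraries, results without 1 or both of them are given.

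Rtp1 and Rtp2 are both on chromosome 16 of GRCm38 (GENCODE M21), Rtp1 at chr16:23429133-23433960 on the plus strand and Rtp2 at chr16:23925548-23932394 on the minus strand, 491587 bases apart. Reep1 is at chr6:71707561-71810710 on the plus strand. Reep6 at chr10:80329953-80336441 and Ric8b at chr10:84917616-85018337 share chromosome 10, the chromosome of the Taar cluster, and both are on the plus strand. Gng8 is at chr7:16891786-16895436 on the plus strand. All 6 are protein-coding genes. The transcripts of each shared 0% of their 50-base words with transcripts of any other gene, so no near-identical copy was found for any of them. Reep1 overlaps the unconfirmed gene models Gm44769 and Gm44770 on its own strand.

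RefSeq promoter windows (GRCm38.p6, 250 bases before to 50 after the start site) were given for 4 of the 6 members, Rtp2, Reep1, Ric8b and Gng8. They were searched on both strands for CCCNNGGG, the core letters bound by the EBF family of OSN transcription factors, for TAATTA, homeodomain letters of the kind bound by LHX2, and for TATAAA. CCCNNGGG, which reads the same on both strands, was found in 2 of the 4, Rtp2 and Reep1, against 13.7% of 32851 promoters of the same length. TAATTA and TATAAA were found in 0 of the 4, against 5.29% and 13.6% of all promoters. Both are shown because they are the only matches in these 4 windows, with the match in capitals and each written on its gene's strand.
Rtp2, chr16:23930978-23931007, minus strand: acctccgtcagCCCATGGGttggatctcac
Reep1, chr6:71707605-71707634, plus strand: gaggcagccctCCCTGGGGgttcggaggcc
The Rtp2 match began 202 bases before the RefSeq start and lies within the GENCODE span of Rtp2. The Reep1 match began 65 bases before the RefSeq start and lies within the GENCODE span of Reep1. These are matches of letters and say nothing about binding.

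In the Taar5 line, 0 of the 6 members differed between Taar5+ and control libraries at an adjusted p under 0.05 (limma on log2(TPM + 1), adjusted over all genes tested), where 21 of 12502 genes, or 0.168%, did. At an unadjusted p under 0.05 the count was also 0 of 6, against 7.05% of all genes. Without Taar5+ library 5, and without it and control 2, Ric8b was under 0.05 (limma, unadjusted p = 0.0217 and 0.0337). In those fits 1070 of 11968 and 1618 of 11915 genes were under 0.05. In 0 of 6 members were the groups free of overlap, against 0.144% of all genes. The log2 fold change, Taar5+ minus control, was above 0 for 5 members and below 0 for Gng8, with a median of 0.27 against 0.02 over all genes. The direction was not stable for Rtp1, Rtp2 and Reep1, whose fold changes fell below 0 when control 2 was left out (-0.09, -0.13 and -0.02), nor for Reep6, which was below 0 without both control 2 and Taar5+ library 5 (-0.29). The median over all genes was -0.17 without control 2 and -0.22 without both libraries. In bulk libraries such as these, fewer cells with a gene and less RNA of it per cell cannot be told apart.

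**Figure D1:**
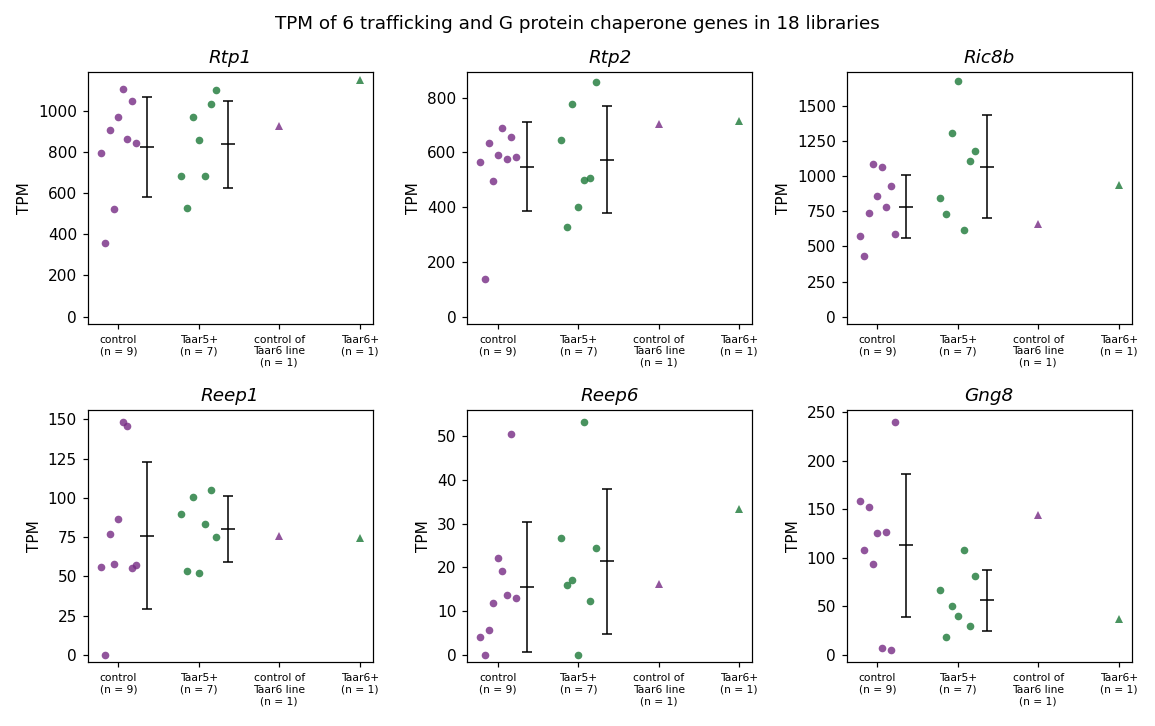
TPM of each of the 6 genes, 1 point per library, in controls and Taar5+ libraries (circles) and in the Taar6 line (triangles), with the mean and SD drawn beside the groups of 9 and 7. The Taar5+ and control points overlap in every panel, and control 2 is the lowest point in every panel but that of Gng8.

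Rtp1 was expressed at 530 TPM in the lowest, 858 in the median and 1100 in the highest Taar5+ library. In controls the lowest, median and highest values were 357, 864 and 1105 TPM. The groups overlapped at the high end, with control 6 the highest of both, and controls 2 and 4, at 357 and 525 TPM, were below every Taar5+ library. The means were 837 ± 211 TPM (SD, n = 7) in Taar5+ and 824 ± 242 TPM (SD, n = 9) in control libraries. Its log2 fold change was 0.05 (SE 0.22, limma adjusted p = 0.985), with a 95% interval from -0.42 to 0.52. By rank, Rtp1 was the 145th of 23359 symbols in the median Taar5+ library and the 133rd in the median control.

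Rtp2 was expressed at 328, 507 and 859 TPM in the lowest, median and highest Taar5+ library and at 139, 585 and 689 TPM in controls. Control 2 accounted for the low end, since the next lowest control was at 496 TPM. Without it the controls were tightly grouped, with a coefficient of variation of 10.04% in place of 29.8%, whereas Taar5+ libraries varied by 33.9%. Taar5+ libraries 3 and 7, at 777 and 859 TPM, were above every control, and libraries 2 and 4, at 328 and 403 TPM, were below every control but control 2. The means were 574 ± 195 TPM (SD, n = 7) and 548 ± 163 TPM (SD, n = 9). The log2 fold change was 0.11 (SE 0.29, limma adjusted p = 0.981), with a 95% interval from -0.50 to 0.71.

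The paired transporters were also compared within each library, as the log2 ratio of Rtp1 to Rtp2. Rtp1 was the higher in 7 of 7 Taar5+ and 9 of 9 control libraries. The mean log2 ratio was 0.57 ± 0.38 (SD, n = 7) in Taar5+ and 0.63 ± 0.33 (SD, n = 9) in control libraries. The difference was -0.05 (exact two-sided permutation test, p = 0.778, and 0.933 after Benjamini-Hochberg adjustment over 6 ratios), and it turned to 0.04 without control 2, where Rtp1 exceeded Rtp2 by the most, 1.35. Of all pairs of members, Rtp1 and Rtp2 had the highest correlation over the 16 libraries of the Taar5 line (Spearman rho 0.78, and 0.73 without control 2), a description over libraries that share group and quality.

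Reep1, a membrane protein that bends ER tubules and can raise the surface level of some ORs, was at 52.3, 83.6 and 105 TPM in the lowest, median and highest Taar5+ library. In controls the values were 0, 57.8 and 148 TPM. Controls were the more spread out, with controls 6 and 7 at 148 and 146 TPM above every Taar5+ library, and Reep1 listed at 0 in control 2. The means were 80.0 ± 21.2 TPM (SD, n = 7) and 76.0 ± 46.8 TPM (SD, n = 9). The log2 fold change of 0.68 (SE 0.75, limma adjusted p = 0.955) had a 95% interval from -0.89 to 2.24. It rested on the 0 in control 2, since without that library it was -0.02.

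Reep6, a relative of Reep1 best known from rod photoreceptors, was the lowest member in every group. Its values were 0.08, 17.1 and 53.3 TPM in the lowest, median and highest Taar5+ library, and 0, 13.1 and 50.4 TPM in controls. Single libraries stood out at both ends, with Taar5+ library 5 at 53.3 and control 8 at 50.4 TPM, and Taar5+ library 4 at 0.08 and control 2 listed at 0. The means were 21.4 ± 16.5 TPM (SD, n = 7) and 15.6 ± 14.8 TPM (SD, n = 9). On the log2 scale the fold change was 0.46 (SE 0.81, limma adjusted p = 0.973), with a 95% interval from -1.23 to 2.14. The log2 ratio of Reep6 to Reep1 differed by -0.22 between groups (exact two-sided permutation test, p = 0.770, adjusted p = 0.933), and was above 0 without control 2 (0.05), in which both genes were listed at 0 and the ratio of 0 came from the pseudocount alone, without control 8 (0.03) or without Taar5+ library 4 (0.32).

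Ric8b, the chaperone and exchange factor of Gαolf, had the smallest p-value among the members. It was at 620, 1112 and 1680 TPM in the lowest, median and highest Taar5+ library and at 434, 778 and 1084 TPM in controls. Taar5+ libraries 3, 4, 6 and 7, or 4 of 7, were above every control, and controls 1, 2 and 9 were below every Taar5+ library. The means were 1068 ± 367 TPM (SD, n = 7) and 784 ± 224 TPM (SD, n = 9), giving a ratio of 1.36. The log2 fold change was 0.43 (SE 0.22), with a 95% interval from -0.04 to 0.89, and it did not pass the test (limma, unadjusted p = 0.0699, adjusted p = 0.784). It passed under 1 of 29 alternatives, limma with a weight for each library (0.60, adjusted p = 0.0105), a fit that called 1410 genes in all, and the adjusted p over the 29 ran from 0.0105 to 0.9985. By rank, Ric8b was 96th among the symbols in the median Taar5+ library and 156th in the median control.

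Gnal, the client of Ric8b, was at 1452 ± 396 TPM (SD, n = 7) in Taar5+ and 1312 ± 454 TPM (SD, n = 9) in control libraries (log2 fold change 0.24, limma adjusted p = 0.956). Ric8b per Gnal was taken within each library as a log2 ratio, and its lowest, median and highest values were -0.83, -0.48 and 0.03 in Taar5+ libraries and -0.98, -0.86 and 0.63 in controls. Of the controls, 8 of 9 lay between -0.98 and -0.58, and control 2 alone was above 0. Over all libraries the difference was 0.19 (exact two-sided permutation test, p = 0.435, adjusted p = 0.933 over 6 ratios). The difference in medians was 0.38 (exact two-sided permutation test, p = 0.0267, adjusted p = 0.160). Without control 2 the difference in means was 0.35 (exact permutation p = 0.00793, adjusted p = 0.0476), and without control 2 and Taar5+ library 5 it was 0.41 (exact permutation p = 0.00266, adjusted p = 0.0160). These were the only 2 of 21 alternatives under which it passed, and both left out the outlying control of this ratio. The result was therefore decided by 1 control library, in which Gnal was at 280 TPM, the lowest value of any library in the Taar5 line. In the Taar6 line the log2 ratio was -1.76 in positive and -1.87 in negative cells, both below all 16 libraries of the Taar5 line.

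Ric8a, the paralog that serves other alpha subunits, was far lower than Ric8b, at 58.2 ± 13.7 TPM (SD, n = 7) in Taar5+ and 54.8 ± 28.0 TPM (SD, n = 9) in control libraries. The log2 ratio of Ric8b to Ric8a was 4.13 ± 0.56 (SD, n = 7) and 4.15 ± 1.29 (SD, n = 9). The difference of -0.02 (exact two-sided permutation test, p = 0.979, adjusted p = 0.979) became 0.34 without control 2, where Ric8a was at 2.38 TPM.

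**Figure D2:**
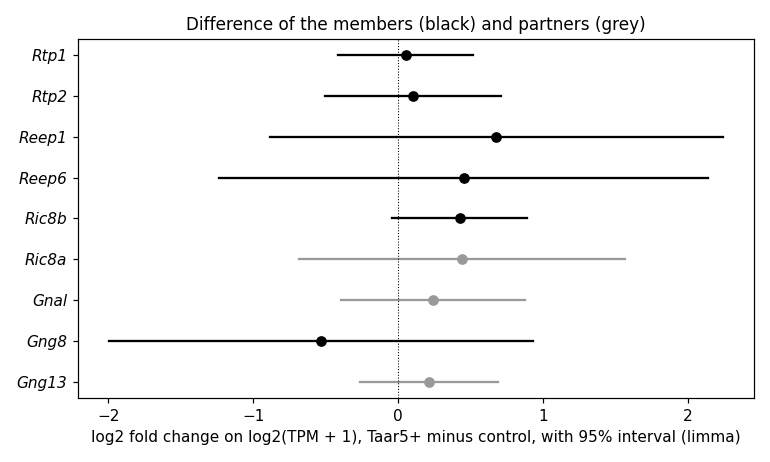
Log2 fold change on the log2(TPM + 1) scale, Taar5+ minus control, of the 6 members in black and of the partners Ric8a, Gnal and Gng13 in grey, with the limma 95% interval as a line. All intervals include 0, and that of Ric8b, from -0.04 to 0.89, does so by the least.

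Gng8 was the only member with a lower mean in Taar5+ libraries. Its values were 18.4, 50.1 and 108 TPM in the lowest, median and highest Taar5+ library and 5.21, 126 and 240 TPM in controls. All 7 Taar5+ libraries were below the control mean and median, and 5 of the 9 controls were above every Taar5+ library. The other end was also held by controls, since controls 6 and 8 were at 7.52 and 5.21 TPM, below every Taar5+ library, while the remaining controls were at 93.4 to 240 TPM. The means were 56.3 ± 31.2 TPM (SD, n = 7) and 113 ± 73.7 TPM (SD, n = 9), giving a ratio of 0.50. Its log2 fold change was -0.53 (SE 0.70, limma adjusted p = 0.958), with a 95% interval from -1.998 to 0.93. It was below 0 under all 29 alternatives and passed in none, from -0.31 without Taar5+ library 2 to -0.97 without control 8 among the fits that left out 1 library.

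The markers of immature OSNs moved with Gng8 across libraries. The list of Gap43, Stmn2, Dpysl3, Dpysl5 and Crmp1 summed to 407 TPM in control 6 and 610 TPM in control 8, the libraries with the least Gng8. In the other 7 controls it summed to 1582 to 3168 TPM, and in Taar5+ libraries to 1146 to 1914 TPM. Control 9, with the most Gng8, also had the highest sum. The sum of mature markers (Omp, Cngb1, Cnga4, Gng13 and Stoml3) was highest in the same controls 6 and 8, at 51137 and 55050 TPM, against 16514 to 40276 TPM in other controls and 23336 to 35715 TPM in Taar5+ libraries. This sum mixed directions, as 2 of the 5 genes had a fold change below 0 and 3 above. Mean Stoml3 was 5510 TPM in Taar5+ and 15101 TPM in control libraries, and mean Omp was 14669 and 12131 TPM. In control 6, Omp was at 14715 TPM, below control 7 (15541 TPM). Gng13 there was at 10275 TPM, below control 1 (14858 TPM). Of the immature list, 5 of 5 genes were tested, 4 had a fold change below 0 (median -0.20 over the 5), and 0 passed the test. The part of cell maturity in the level of Gng8 was not tested beyond these values and the ratio to the list.

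**Figure D3:**
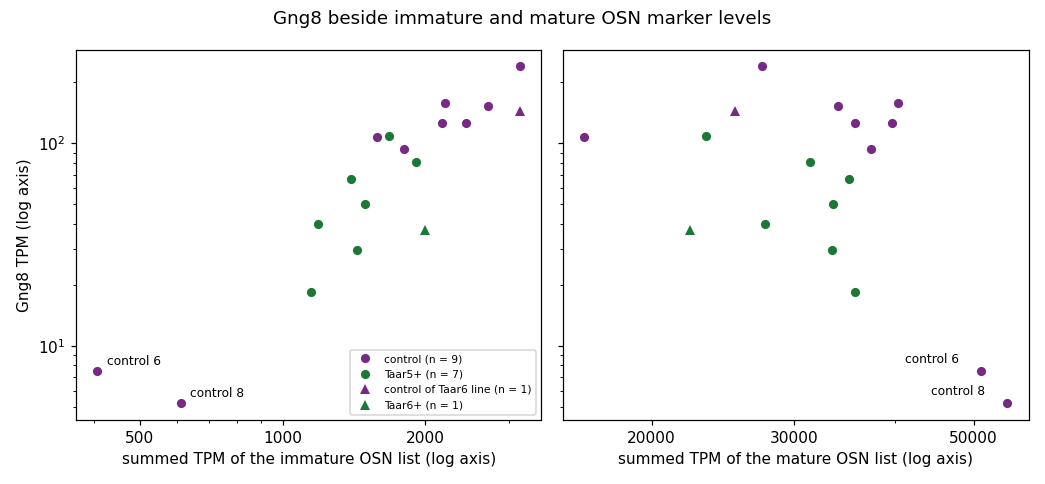
Gng8 TPM (log axis) against the summed TPM of 5 immature OSN markers (left, log axis) and of 5 mature OSN markers (right, log axis), 1 point per library, with groups by colour and the Taar6 line as triangles. Controls 6 and 8, at 7.52 and 5.21 TPM of Gng8, have the lowest immature and the highest mature sums of the 18 libraries. The mature sum includes Stoml3, which was lower in Taar5+ libraries.

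Relative to the mean log2(TPM + 1) of the immature list, Gng8 was at -1.89 ± 0.57 (SD, n = 7) in Taar5+ and -1.62 ± 1.07 (SD, n = 9) in control libraries. The difference was -0.27 (exact two-sided permutation test, p = 0.561, adjusted p = 0.933). Controls 6 and 8 were lowest here too, so Gng8 was lower there than the list was. Relative to Gng13, the gamma subunit of mature OSNs and the highest of the 26 G protein subunit genes at a mean of 10538 TPM in Taar5+ and 9137 TPM in control libraries, Gng8 was at a log2 ratio of -7.66 ± 1.16 (SD, n = 7) against -6.91 ± 2.11 (SD, n = 9). In 6 of 7 Taar5+ libraries the ratio was below the control mean, and library 5, at -5.46, was the exception. The difference of -0.75 did not pass (exact two-sided permutation test, p = 0.411, adjusted p = 0.933).

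**Figure D4:**
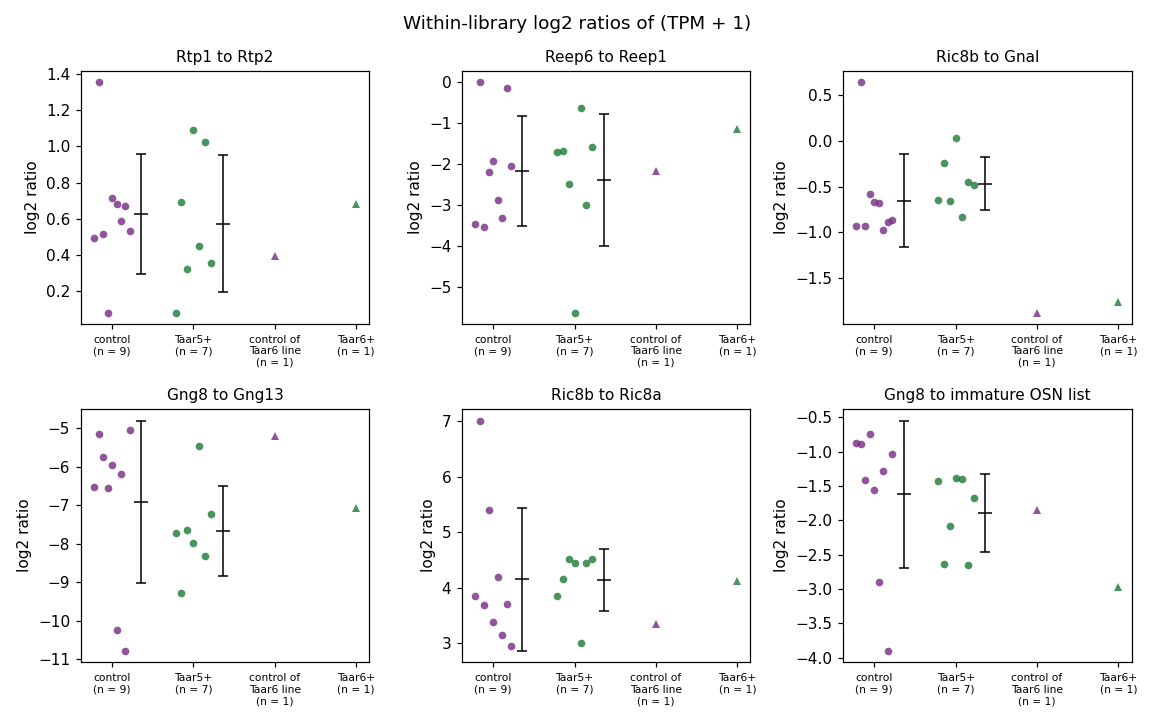
The 6 within-library log2 ratios, each the difference of log2(TPM + 1) of the genes named, or of Gng8 and the mean of the immature OSN list, with 1 point per library and the mean and SD beside the groups of 9 and 7. Control 2 is the highest control for Rtp1 to Rtp2, Ric8b to Gnal, Ric8b to Ric8a and Reep6 to Reep1 (at 0, where both genes are listed at 0), and controls 6 and 8 are the lowest for both Gng8 ratios.

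By group mean, the members fell into a high tier (Ric8b, Rtp1, Rtp2) and a low tier in every group. In Taar5+ libraries the order of mean TPM was Ric8b, Rtp1, Rtp2, Reep1, Gng8 and Reep6. Ric8b exceeded Rtp1 in 6 of 7 libraries, by a mean log2 difference of 0.32 ± 0.35 (SD, n = 7), less than the spread, and Reep1 exceeded Gng8 in 5 of 7. Rtp2 exceeded Reep1 in 7 of 7 libraries by 2.80 ± 0.39 (SD, n = 7), the step between the tiers. In controls the order was Rtp1, Ric8b, Rtp2, Gng8, Reep1 and Reep6, with Rtp1 above Ric8b in 7 of 9 libraries by 0.06 ± 0.47 (SD, n = 9) and Gng8 above Reep1 in 6 of 9. The neighbours Rtp1 and Ric8b, and Gng8 and Reep1, thus did not differ beyond their spread in either group. The order of means in controls was the same without control 2.

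In the Taar6 line, each group was 1 library of another reporter and age, so the values stand without a test. Rtp1 was at 1149 TPM in Taar6+ and 925 TPM in the negative library, and Rtp2 at 716 and 705 TPM. Reep1 was at 74.2 and 76.0 TPM, and Ric8b at 938 and 660 TPM. These 4 differed by less than 2-fold. Gng8 was at 37.4 TPM in Taar6+ and 144 TPM in the negative library, a log2 difference of -1.92, and was the 1 of 6 members more than 2-fold lower, where 13.8% of 15189 genes were. The immature list summed to 1991 TPM in Taar6+ and 3162 TPM in the negative library. Other lists also differed between these libraries, with sustentacular markers at 1245 against 156 TPM, blood and immune markers at 998 against 170 TPM and horizontal basal markers at 15.6 against 67.4 TPM. Within the blood and immune list, Lyz2 was at 372 against 81.0 TPM and Hba-a1 at 10.3 against 13.8 TPM. Reep6 was at 33.3 and 16.2 TPM, a log2 difference of 0.99 that fell just short of 2-fold, so that 0 of 6 members were more than 2-fold higher, against 4.89% of genes. The Taar6+ value of every member but Rtp1 lay within the range of the Taar5+ libraries.

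Genes with the most similar pattern to each member were ranked by Spearman rho over the 16 libraries, among 8151 genes with a mean of at least 10 TPM. Gng8 had the closest companions, Nrep at 0.96, Fabp5 at 0.94 and Dpysl3, a member of the immature list, at 0.92. For Rtp1 the leading genes were Acss1 at 0.87, the ER chaperone gene Clgn at 0.86 and Znrd1as at 0.84, and for Rtp2 they were Endod1 and the myosin motor gene Myo5a, both at 0.87, and 2510009E07Rik at 0.85. Reep1 ranked with 2310044G17Rik and the cell fate gene Numb at 0.86 and A430033K04Rik at 0.85, and Reep6 with Klhl26 at 0.83, Cmss1 at 0.81 and Urgcp at 0.80. Ric8b ranked with the heat shock protein gene Hspa4l and the vesicular glutamate transporter gene Slc17a6, both at 0.89, and 4922501L14Rik at 0.88. These ranks depended on the measure, since 12 of the 18 genes stayed in the leading 3 without control 2, 6 with deviations from the group means and 2 with Pearson r. Between members, the lowest rho was that of Ric8b with Gng8, at -0.58.

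Other genes of the same families and steps were taken from lists, and 0 passed the test in either direction of 61 genes tested. With a weight for each library, 6 of the 61 passed (Cct8, Gnas, Gng2, Reep5, Rtn1 and Sec13). That fit called 1410 of 12502 genes, 197 higher and 1213 lower, so the 61 passed no more often than all genes did. Among the relatives Rtp3, Rtp4, Reep2, Reep3, Reep4, Reep5 and Ric8a, 4 of 7 were tested, with a median log2 fold change of 0.51 against 0.02 for all genes. That median covers few genes, of which Ric8a was at 0.44 with control 2 and at -0.01 without it, and the list's summed TPM had a lower median in Taar5+ (78.9) than in control libraries (97.5). Rtp3, Rtp4 and Reep3 were named after their values were seen. Rtp3 was listed at 0 in all 18 libraries and Rtp4 reached at most 3.77 TPM, both far below Rtp1 and Rtp2. Reep3 and Reep4 had means of 8.02 and 12.7 TPM in Taar5+ libraries, below Reep1. Reep5, an ER-tubule protein, was at 0, 7.90 and 47.5 TPM in the lowest, median and highest Taar5+ library and at 18.9, 26.0 and 53.7 TPM in controls, with 6 of 7 Taar5+ libraries below every control. Its log2 fold change of -2.30 did not pass (limma adjusted p = 0.257), but did without the high Taar5+ library 5 (-2.80, adjusted p = 0.0421). That fit called 66 of 11968 genes, 36 of them lower, and the median of all genes was -0.03.

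Of the G protein subunit genes, 21 of 26 were tested, 12 with a fold change above 0 and 9 below (median 0.24), and Gng13, Gnb1 and Gnal were the highest. Gnb1, the beta subunit, was at 2215 ± 669 TPM (SD, n = 7) and 1858 ± 587 TPM (SD, n = 9). Gnas, the alpha subunit related to Gnal, was named after its values were seen and was far below Gnal, at a median of 12.2 TPM in Taar5+ and 72.0 TPM in control libraries. Its log2 fold change of -1.88 did not pass (limma adjusted p = 0.426), but did without control 2 and Taar5+ library 5 (-2.38, adjusted p = 0.0378). That fit called 337 of 11915 genes, 288 of them lower, and the median of all genes was -0.22. Reep5 (-2.75, limma adjusted p = 0.0141) and Rtn1 (-0.57, limma adjusted p = 0.0305) also passed in that fit. Of the chaperones of G protein assembly (Pdcl, Dnajc14 and the CCT complex), 10 of 10 were tested (median -0.08), led by Cct5, Cct6a and Cct3 with means from 315 to 477 TPM in Taar5+ and 306 to 491 TPM in control libraries.

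Among the ER-shaping partners of Reep1, 11 of 12 were tested (median 0.15), and Rtn1, Rtn3 and Arl6ip1 were the highest. Rtn1, a reticulon, was at 871, 1173 and 1382 TPM in the lowest, median and highest Taar5+ library and at 633, 1641 and 2309 TPM in controls, of which 7 of 9 were above every Taar5+ library. Its log2 fold change of -0.41 did not pass (limma adjusted p = 0.750), but did without control 2, the lowest control (-0.57, adjusted p = 0.0433). That fit called 148 of 12460 genes, 117 of them lower, and the median of all genes was -0.17. Of the genes of ER export, 15 of 15 were tested (median -0.11), and over all 16 libraries Sar1b, Rab11a and Rab6a had the highest means, from 285 to 315 TPM in each group. Sec13, a coat subunit named after its values were seen, was at 221 ± 51.5 TPM (SD, n = 7) and 315 ± 46.0 TPM (SD, n = 9). It did not pass in the test as run (log2 fold change -0.53, limma adjusted p = 0.321).

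Markers of other cells were present and not equal between libraries or groups. Sustentacular markers summed to 61.4 to 7417 TPM in Taar5+ and 28.7 to 9078 TPM in control libraries, and 0 of 4 passed. The highest sums were those of control 2 and Taar5+ library 5. Horizontal basal markers (Krt5, Krt14 and Trp63) had a median sum of 5.01 against 98.0 TPM and 3 of 3 were lower at an unadjusted p under 0.05 only. Taar5+ library 5, at 181 TPM, was above every control (at most 123 TPM). The other Taar5+ libraries were at 0 to 17.5 TPM. For microvillar markers the median sum was 5.73 against 122 TPM, for ensheathing glia 18.2 against 58.9 TPM, for glands 18.2 against 37.1 TPM and for blood and immune cells 522 against 1148 TPM, and 0 of these genes passed the adjusted test. The blood and immune list mixed directions, as 5 of its 6 genes had a fold change below 0 and 1, the hemoglobin gene Hba-a1, above. Hba-a1 alone had a median of 502 TPM in Taar5+ and 979 TPM in control libraries. Single libraries were far higher, with gland markers at 6102 TPM in Taar5+ library 5 and blood and immune markers at 6361 TPM in control 1. Controls 6 and 8, the low controls for Gng8, had the highest microvillar sums, at 573 and 608 TPM. Of the mature OSN list, 1 of 5 passed, Stoml3, which was lower in Taar5+ libraries (-1.42, limma adjusted p = 0.00994). The part of these cells in the values of the 6 members was not tested.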

How the data were processed

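Per the study's methods and processing notes, the authors made Smart-seq2 libraries from sorted cells, trimmed reads with Trimmomatic 0.36, mapped them to mm10 (GRCm38) with HISAT2 2.1.0 and quantified genes with Cufflinks 2.2.1. The deposited values are TPM, which keep no sequencing depth, so counting error cannot be stated. How the output became TPM, the annotation and the handling of reads with several matches are not given in the sources used here. A TPM of 0 can be a failed estimate.

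Of 23847 rows, 488 repeated a symbol and were summed with it. Genes at 1 TPM or more in 7 or more of the 16 libraries of the Taar5 line entered limma 3.58.1 (R 4.3.3, eBayes with a trend) on log2(TPM + 1), a scale that understates changes of low genes, with Benjamini-Hochberg adjustment over 12502 genes and a threshold of 0.05. Ratios were compared with exact permutation tests over 11440 arrangements of the libraries (smallest p 8.74e-05; Python 3.11.15, numpy 2.4.6, pandas 2.3.3). The limma fit with a trend was run on simulated data by separate code, which did not check the filter, the pseudocount or the alternatives. Symbols Ric8, Lnp and Rab1 were read as Ric8a, Lnpk and Rab1a.

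Named were the 6 members, the genes of the ratios, the 3 genes most like each member, and from each pathway list any called gene (there was none) and the 3 with the highest mean over 16 libraries. Rtp3, Rtp4, Reep3, Gnas, Sec13 and genes passing only under an alternative were named after their values were seen. Members, lists and alternatives were chosen with earlier results of these data known. Alternatives were another pseudocount, filter, scaling, weighting and set of libraries. The values of 1 marker list are not reported here.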

Additional observations from a re-analysis of the deposited data

Results flagged for a closer look

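In 4 of 24 sets of values checked (6 members and 6 ratios, in Taar5+ and in control libraries), 1 library lay farther from its nearest neighbour than Dixon's 95% limit allows, where chance alone gives about 1.2. The sets are not independent, since the ratios reuse the members and most flags fell on control 2. The count is therefore not one of separate events. Rtp2 in control 2 was at 139 TPM, and the nearest control was at 496 TPM. The log2 ratio of Rtp1 to Rtp2 in the same library was 1.35, with the nearest control at 0.71. The log2 ratio of Ric8b to Gnal in control 2 was 0.63, with the nearest control at -0.58. Reep6 in control 8 was at 50.4 TPM, with the nearest control at 22.1 TPM.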

How the results depend on the processing

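TPM give no depth, the control group had 1 sparse library, and 95% intervals of Reep1, Reep6 and Gng8 spanned more than 2 log2 units, so sizeable differences of these genes were not detectable. The count of members called stayed at 0 in 28 of 29 alternatives and was 1 with array weights. The count of all genes called ran from 16 to 148 when 1 library was left out (148 without control 2, 66 without Taar5+ library 5), and was 109 after quantile normalization, 1410 with array weights, 337 without both libraries and 13 with the replicate number as a block, against 21. Scaling to the mature list moved the median log2 fold change of all genes to 0.22, array weights to -0.16, leaving out control 2 to -0.17 and leaving out both libraries to -0.22, against 0.02. The cause of these shifts was not tested. With 1 library left out, fold changes ran from -0.088 to 0.16 for Rtp1, -0.13 to 0.23 for Rtp2 and -0.024 to 0.88 for Reep1, and ratio differences from -0.14 to 0.039 for Rtp1 to Rtp2, -0.52 to 0.32 for Reep6 to Reep1, 0.10 to 0.35 for Ric8b to Gnal and -0.17 to 0.34 for Ric8b to Ric8a. Without control 2 and Taar5+ library 5, fold changes were -0.046 for Rtp1, -0.11 for Rtp2, -0.041 for Reep1 and -0.29 for Reep6, and ratio differences 0.060 for Rtp1 to Rtp2, 0.41 for Ric8b to Gnal and 0.53 for Ric8b to Ric8a. Reep6 to Reep1 turned to 0.48 with medians and to 0.084 with the replicate block, and Ric8b to Ric8a to 0.74 with medians and to 0.065 with 10 controls. Same-numbered libraries of the groups deviated together only in part (correlations from -0.01 to 0.28, and 3 of 7 Taar5+ libraries matched best the control of their own number), so the numbers were not taken as pairs. The block changed no call of a member. In that fit Ric8b was at 0.42, with a 95% interval above 0 (0.05 to 0.79, limma unadjusted p = 0.0290, adjusted p = 0.551). Its interval was also above 0 under some other alternatives, among them array weights, scaling to the mature list and leaving out both libraries. For Gng8 the block gave -0.79 (limma unadjusted p = 0.115), against an unadjusted p of 0.456 in the main fit. For the ratios the smallest p under the block is 0.0156, which no single ratio could bring past the threshold after adjustment, so their unchanged calls say nothing.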
